A study of Mus musculus with 6 samples.

Results

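The 37 genes described here encode proteins that carry out or mark mitosis, the division of the chromosomes. They were taken by symbol from a list of members, and all 37 had a row among the 24047 rows of the deposited count table. All 37 also passed the filter on low counts, which left 10454 genes for testing. RNA came from CD4 T cells of B6.129 mice aged 7 weeks, with 3 WT libraries and 3 libraries of genotype Srsf1-flox/flox dLck.Cre, labelled Srsf1-cKO. Spleen cells that started as naive T cells were cultured for 72 h on anti-CD3 at 0.5 µg/mL plus anti-CD28 at 1 µg/mL, a stimulus that makes naive T cells divide. Both groups then received PMA (100 ng/mL) and ionomycin (1 µM) for 4 h before RNA was taken. The dLck.Cre transgene expresses Cre recombinase from the distal promoter of Lck, which is active in T cells. The sources used here do not give whether the WT mice carried Cre or a floxed allele. The question a comparison of these genes answers is whether the T cell cultures of the 2 genotypes held different amounts of mitotic mRNA.

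Mitosis is driven by the kinase CDK1 bound to cyclin A or cyclin B, with help from the Aurora kinases and PLK1. Kinetochores, built on centromeric chromatin, attach each chromosome to the spindle, and the spindle checkpoint holds back chromosome separation until all are attached. The anaphase-promoting complex (APC/C) with CDC20 then marks cyclin B and securin for destruction, and the midzone proteins and anillin split the cell. Most of these genes are transcribed in the G2 phase and in mitosis and are nearly silent in resting T cells, so their mRNA in a culture depends in part on how many cells are dividing. In bulk RNA, more cells in mitosis and more mitotic mRNA per cell cannot be told apart.

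The libraries held 7781283 to 10184268 gene counts. Values below are CPM, gene counts scaled to a common library total by TMM, and are given for replicates 1, 2 and 3 in that order. The targeted splicing factor gene, Srsf1, did not pass the test in either direction. It stood at 495 ± 42.1 CPM in WT and 514 ± 39.1 CPM in the others (SD, n = 3 each), with a log2 fold change of 0.06 (95% confidence interval -0.23 to 0.34; edgeR adjusted p = 0.78). These counts cover the whole gene, and the sources used here do not give the floxed exons, so deletion could not be checked by exon. Groups are therefore called by their labels, and every fold change sets the libraries labelled Srsf1-cKO over WT. Each group held 3 mice by the series' design, and p-values measure only the spread between these libraries. All 10 CD4 T cell markers examined were tested, 1 (Cd3g) was higher, and their summed level was 3331 to 3623 CPM in WT and 2984 to 4324 CPM in the libraries labelled Srsf1-cKO. The summed levels of the markers of other cells were below those of the CD4 T cell markers in every library. The 10 myeloid genes with a row summed to 3.56 to 11.5 CPM in WT and 23.1 to 32.9 CPM in the libraries labelled Srsf1-cKO. Among them S100a9 was at 0 in every library. Of the 4 tested, Lyz2 and Cybb rose, and Cd68 and Itgam were not called but were higher in each library labelled Srsf1-cKO than in any WT library. For B cells, 6 of 10 genes were tested and 2 rose (Cd79a and H2-Aa). The summed levels were 8.18 to 38.5 CPM in WT and 30.1 to 58.6 CPM in the libraries labelled Srsf1-cKO, and Fcrla was at 0 in every library. Of the 6 tested B cell genes, 5 were above 0, among them Ms4a1 (log2 2.48; edgeR adjusted p = 0.0545), which did not overlap. H2-Ab1 stood at 15.0 CPM in WT and 12.3 CPM in the others (log2 -0.29; edgeR adjusted p = 0.693). Of 2 CD8 genes 1 was tested and not called, and they summed to 24.6 to 42.5 CPM in WT and 16.7 to 22.8 CPM in the others, and 6 natural killer genes to 54.9 to 90.5 and 19.6 to 53.7 CPM, with Ncr1 at 0. Of the 2 natural killer genes tested, Eomes fell from 71.2 to 20.8 CPM, and Nkg7 stood at 2.44 and 10.4 CPM (log2 2.13; edgeR adjusted p = 0.0574) without overlap. The 6 dendritic cell genes (1 tested) summed to 4.16 to 21.6 CPM in WT and 7.25 to 10.3 CPM in the others, with Clec9a at 0, and 5 of 6 erythroid genes were at 0. Splices per 100 uniquely mapped reads were 27.9 to 30.5 in WT and 26.9 to 27.1 in the others. The part of these differences in the results below was not tested.

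Mitosis genes were more abundant in the libraries labelled Srsf1-cKO. Of the 37, 15 rose and 0 fell by edgeR's quasi-likelihood test at an adjusted p under 0.05. The 15 make up 40.5% of the members, where 8.9% of all 10454 tested genes were called higher and 9.5% lower. At an unadjusted p under 0.05 there were 26 higher members and 0 lower ones, where 17.2% of all tested genes were higher and 17.7% lower at that level. Neither DESeq2 nor limma-voom called a member lower, while they called 10.4% and 9.18% of all genes lower. The log2 fold change was above 0 at 36 of 37 members, with a median of 0.64 and a range from -0.19 to 1.58, while over all tested genes 50.5% lay above 0 and the median was 0.01. The 3 libraries labelled Srsf1-cKO all lay above the 3 WT libraries at 18 members (48.6%, against 19.9% of all tested genes), lay below them at 0, and overlapped them at 19. The risen genes came from 7 of the 9 roles below and were led by CDK1 and its cyclins.

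**Figure D1:**
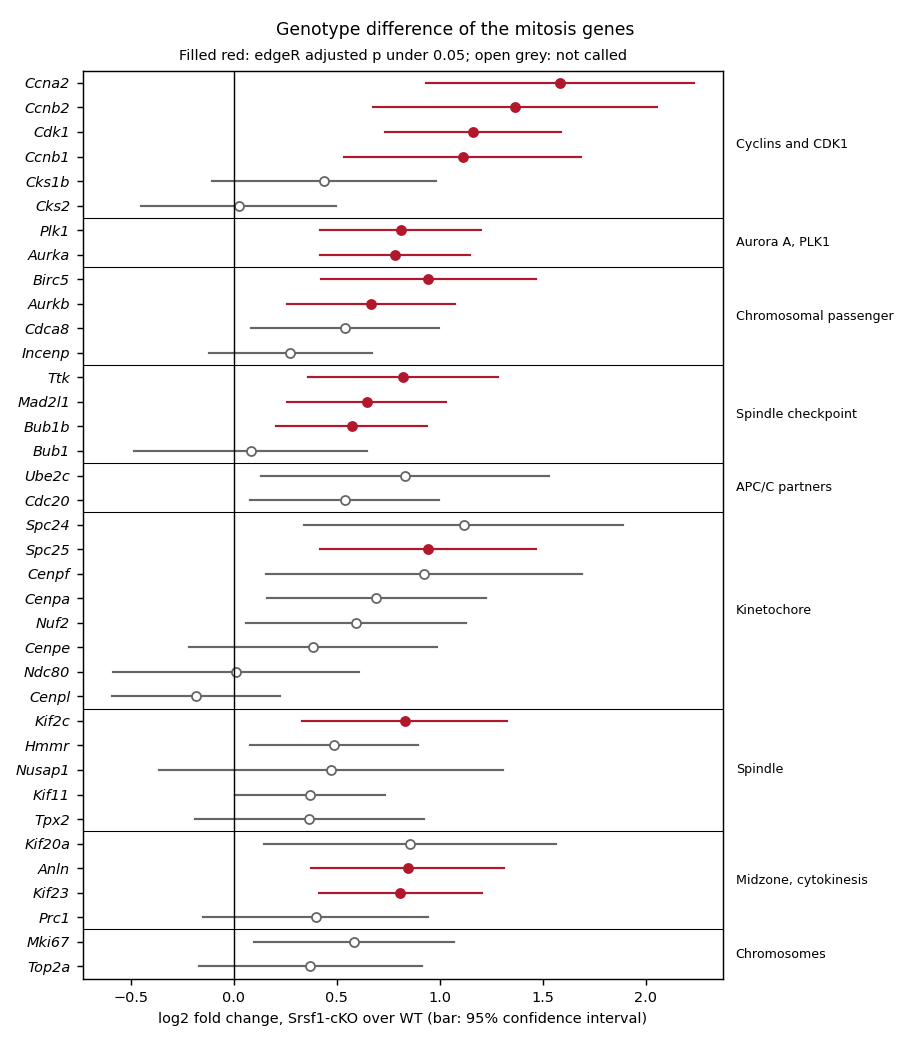
Log2 fold change of each of the 37 mitosis genes, libraries labelled Srsf1-cKO over WT, with its 95% confidence interval and grouped by role; filled points passed edgeR's test at an adjusted p under 0.05. Ccna2 lies farthest to the right at 1.58, and Cenpl is the 1 gene left of 0, at -0.19.

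The promoters of these genes share sequence elements. In many genes of G2 and mitosis, CCAAT boxes bind the factor NF-Y and a CHR element (TTTGAA or TTTAAA), close to the start site, binds the DREAM complex and the MuvB complex with B-MYB and FOXM1. The promoters below are shown because these 4 members have the smallest adjusted p among those with an entry in the RefSeq promoter table (GRCm38.p6), and because they rose together. Each runs from 250 bases before the start site to 30 bases after it, 5′ to 3′ on the gene's own strand. Capitals mark each CCAAT box and each CHR element of either form, on either strand. A CCAAT box on the opposite strand reads ATTGG here, and both CHR forms were searched in the same way. Cdk1 lies at chr10:69352883-69353162 (minus strand), Aurka at chr2:172370541-172370820 (minus), Plk1 at chr7:122159185-122159464 (plus) and Kif23 at chr9:61946770-61947049 (minus).
Cdk1: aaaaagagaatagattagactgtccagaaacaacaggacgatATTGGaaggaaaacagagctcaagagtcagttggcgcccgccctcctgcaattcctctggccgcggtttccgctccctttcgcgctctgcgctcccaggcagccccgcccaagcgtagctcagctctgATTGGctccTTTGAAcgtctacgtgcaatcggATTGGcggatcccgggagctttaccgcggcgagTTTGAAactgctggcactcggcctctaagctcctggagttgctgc
Aurka: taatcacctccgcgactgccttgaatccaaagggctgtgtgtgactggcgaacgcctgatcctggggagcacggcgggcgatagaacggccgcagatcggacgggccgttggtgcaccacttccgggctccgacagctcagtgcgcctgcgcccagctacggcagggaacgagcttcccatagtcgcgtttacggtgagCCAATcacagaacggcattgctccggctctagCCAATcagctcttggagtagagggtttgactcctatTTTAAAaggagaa
Plk1: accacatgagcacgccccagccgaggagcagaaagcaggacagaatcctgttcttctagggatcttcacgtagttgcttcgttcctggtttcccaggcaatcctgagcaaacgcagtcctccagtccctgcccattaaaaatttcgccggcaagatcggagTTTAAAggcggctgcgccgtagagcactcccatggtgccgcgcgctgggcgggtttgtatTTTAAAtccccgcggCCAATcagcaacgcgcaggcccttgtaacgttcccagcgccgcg
Kif23: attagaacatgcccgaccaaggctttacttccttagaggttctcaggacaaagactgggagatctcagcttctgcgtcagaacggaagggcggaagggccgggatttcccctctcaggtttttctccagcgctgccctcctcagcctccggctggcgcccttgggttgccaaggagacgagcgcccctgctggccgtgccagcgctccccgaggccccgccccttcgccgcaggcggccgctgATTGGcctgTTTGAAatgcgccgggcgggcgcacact
The Cdk1 promoter held 3 CCAAT boxes and 2 TTTGAA elements, the nearer of which begins 15 bases before the start. In Kif23 a CCAAT box on the other strand stands 7 bases before the start and TTTGAA begins at base 3 of the transcript. Plk1 carries TTTAAA 29 bases before the start, next to a CCAAT box. The Aurka promoter has CCAAT boxes 51 and 19 bases before the start and TTTAAA at base 18.

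An entry was found for 31 of the 37 members, and not for Ccna2, Aurkb, Incenp, Spc24, Tpx2 and Kif20a. Within the whole entries, which run from 250 bases before to 50 after the start, 26 of 31 (83.9%) held TTTGAA or TTTAAA on either strand, against 18.5% of the 8024 tested genes with an entry and 27.8% of all 27025 promoters. TTTGAA alone was in 74.2% of the members, 11.5% of the tested genes and 18.1% of all promoters. CCAAT was in 77.4% of the members, 39.2% of the tested genes and 37.9% of all promoters. At least 2 CCAAT boxes stood in 58.1% of the members, 15.7% of the tested genes and 12.2% of all promoters, and a CCAAT box together with either CHR form in 71.0%, 7.54% and 10.9%. Of 39 CHR matches in the members, 26 began between 30 bases before and 50 bases after the start, and of 62 CCAAT boxes, 40 stood within 100 bases before it. Mad2l1, Nuf2 and Nusap1 held none of the 3 motifs in this window. Members that rose and members that were not called showed no single direction: the CHR forms were in 12 of 13 (92.3%) and 14 of 18 (77.8%), but in 6 of 13 and 9 of 18 before the start alone, and CCAAT was in 69.2% and 83.3%. A match is a description of the letters and not a measured binding site.

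**Figure D2:**
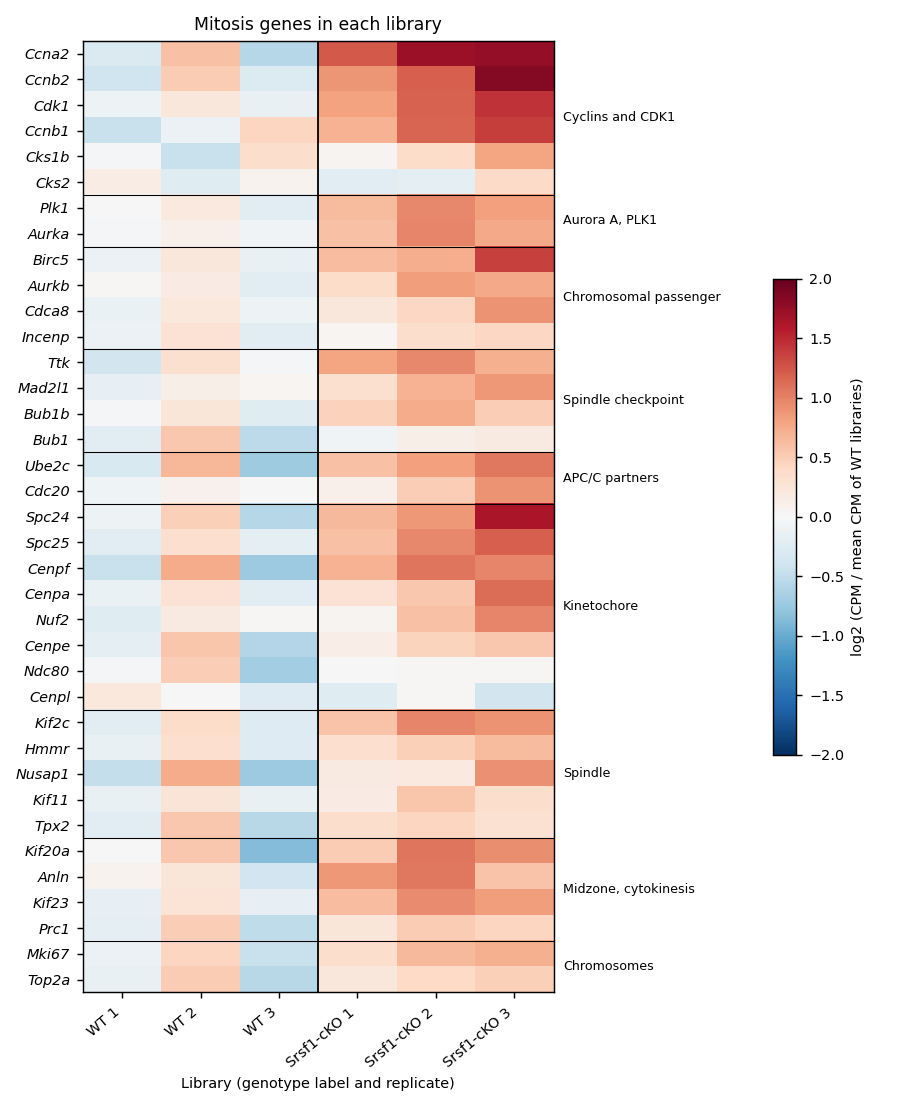
CPM of each of the 37 mitosis genes (rows, by role) in each of the 6 libraries (columns), coloured by log2 of the value over the gene's mean in the WT libraries (red above it, blue below). The libraries labelled Srsf1-cKO are higher than WT replicates 1 and 3 at most genes, and WT replicate 2 lies closer to them.

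CDK1 and its cyclins showed the greatest rise of the 9 roles, with 4 of 6 genes higher and a median log2 fold change of 1.14. Ccna2, which encodes cyclin A2, the partner of CDK2 in S phase and of CDK1 at mitotic entry, stood at 42.6, 78.2 and 35.1 CPM in WT and 121, 169.98 and 175 CPM in the libraries labelled Srsf1-cKO. The lowest of the latter was well above the highest WT value. The mean rose from 51.9 ± 23.0 to 156 ± 29.8 CPM (SD, n = 3 each), a fold change of 3.00 (95% confidence interval 1.91 to 4.71; log2 1.58, SE 0.29; edgeR adjusted p = 0.0111). Ccna2 shares 299 exon bases with Exosc9 on the opposite strand, and Exosc9 stood at 47.9 CPM in WT and 51.0 CPM in the libraries labelled Srsf1-cKO (log2 fold change 0.09; edgeR adjusted p = 0.660).

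Cdk1, the kinase itself, had the smallest adjusted p of the members. Its values were 46.9, 59.1 and 45.3 CPM in WT and 87.7, 114 and 137 CPM in the libraries labelled Srsf1-cKO, without overlap. It rose 2.24-fold (95% confidence interval 1.66 to 3.01; log2 1.16, SE 0.19; edgeR adjusted p = 0.00862). The B-type cyclins followed. Ccnb2 stood at 19.7, 36.8 and 21.4 CPM in WT and at 47.8, 59.6 and 92.9 CPM in the libraries labelled Srsf1-cKO (log2 1.37, SE 0.30; edgeR adjusted p = 0.0197). Ccnb1 stood at 19.3, 24.3 and 35.6 CPM against 42.9, 59.2 and 69.0 CPM (log2 1.11, SE 0.25; edgeR adjusted p = 0.0210). For both, each library labelled Srsf1-cKO was above each WT library. The small CDK-binding subunits did not pass the test. Cks1b, which also serves in the destruction of the CDK inhibitor p27, stood at 60.6, 45.3 and 78.8 CPM and at 64.1, 79.2 and 107 CPM (log2 0.44, SE 0.24, 95% confidence interval -0.10 to 0.98; edgeR adjusted p = 0.227). Its paralog Cks2 was at 26.4, 20.2 and 25.2 CPM and at 20.7, 20.9 and 31.3 CPM (log2 0.02, SE 0.21, 95% confidence interval -0.45 to 0.50; edgeR adjusted p = 0.95). In both the groups overlapped. Without WT replicate 1 none of the 4 calls was left (edgeR adjusted p 0.0543 to 0.0972). Without the library labelled Srsf1-cKO 2 only Cdk1 was called (adjusted p of the 4 between 0.0453 and 0.0807), and without the library labelled Srsf1-cKO 3 Ccnb1 was not (adjusted p 0.0587).

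Both free mitotic kinases rose, by similar amounts. Aurka encodes Aurora A, the centrosomal kinase that activates PLK1, and stood at 21.1, 23.0 and 20.5 CPM in WT and 32.4, 42.3 and 36.5 CPM in the libraries labelled Srsf1-cKO. Its mean rose from 21.5 ± 1.33 to 37.1 ± 4.97 CPM (log2 0.78, SE 0.16; edgeR adjusted p = 0.0148). Plk1, the polo kinase that acts from entry to cytokinesis, stood at 20.5, 23.5 and 17.6 CPM and at 31.9, 40.1 and 36.05 CPM. That was a rise from 20.5 ± 3.00 to 35.996 ± 4.10 CPM (log2 0.81, SE 0.17; edgeR adjusted p = 0.0168). Neither gene's groups came near each other, the closest values being 23.5 CPM in WT and 31.9 CPM in the libraries labelled Srsf1-cKO, both of Plk1. Both calls were lost without WT replicate 1 (edgeR adjusted p 0.0773 to 0.0840) and without the library labelled Srsf1-cKO 2 (0.0833 to 0.0870).

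The chromosomal passenger complex, in which Aurora B, survivin, borealin and INCENP correct faulty attachments and start cytokinesis, had 2 of 4 genes higher. Birc5, the gene of survivin, stood at 18.4, 23.2 and 17.9 CPM in WT and 30.3, 32.7 and 51.3 CPM in the libraries labelled Srsf1-cKO (fold change 1.93; log2 SE 0.23; edgeR adjusted p = 0.0256). Aurkb, the kinase, stood at 27.2, 29.9 and 23.2 CPM and at 34.4, 47.9 and 45.3 CPM (log2 0.67, SE 0.18; edgeR adjusted p = 0.0355). For both the groups were separate, with the third labelled library far above the other two at Birc5 but not at Aurkb. Cdca8 (borealin) was separate as well, at 31.1, 39.3 and 31.5 CPM against 39.5, 45.2 and 63.2 CPM, yet did not pass (log2 0.54, SE 0.20; edgeR adjusted p = 0.0939). Incenp, the scaffold, with the highest CPM of the 4 (not scaled by length), overlapped, at 52.8, 69.85 and 49.6 CPM and 59.0, 73.0 and 76.3 CPM (log2 0.27, 95% confidence interval -0.12 to 0.67; edgeR adjusted p = 0.296). Neither Birc5 nor Aurkb was called without WT replicate 1 (edgeR adjusted p 0.114 to 0.126) or without the library labelled Srsf1-cKO 2 (0.0678 to 0.146). Aurkb was also not called without WT replicate 3 (0.0714) or without the library labelled Srsf1-cKO 3 (0.0770).

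Of the 4 spindle checkpoint genes, 3 rose. Ttk encodes MPS1, the kinase at the head of the checkpoint, and stood at 10.9, 17.6 and 13.9 CPM in WT and 24.4, 27.3 and 23.1 CPM in the libraries labelled Srsf1-cKO (log2 0.82, SE 0.20; edgeR adjusted p = 0.0271). Mad2l1, whose product MAD2 binds CDC20, was at 45.9, 55.9 and 53.2 CPM and at 64.5, 83.3 and 94.3 CPM (log2 0.64, SE 0.17; edgeR adjusted p = 0.0337). Bub1b, the gene of BUBR1 in the same inhibitory complex, was at 57.7, 70.4 and 50.3 CPM and at 82.0, 99.9 and 83.3 CPM (log2 0.57, SE 0.16; edgeR adjusted p = 0.0409). These 3 did not overlap between the groups. Bub1, the kinase that recruits the others to kinetochores, had its highest value in WT: 51.1, 85.8 and 41.2 CPM against 56.3, 64.4 and 67.6 CPM (log2 0.08, SE 0.25, 95% confidence interval -0.48 to 0.65; edgeR adjusted p = 0.843). The sign of the Bub1 value turned without WT replicate 1 (-0.04) and without WT replicate 3 (-0.14). None of the 3 calls was left without WT replicate 1 (edgeR adjusted p 0.116 to 0.157) or without the library labelled Srsf1-cKO 2 (0.115 to 0.171), and 1 of 3 was left without either of the other libraries labelled Srsf1-cKO (up to 0.0752 and 0.0776). Bub1b was also lost without WT replicate 3 (0.0846).

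The partners of the APC/C passed in 0 of 2 cases with edgeR and limma-voom. At an unadjusted p under 0.05 both did, and DESeq2 called 1 of them, Ube2c. Ube2c, the ubiquitin-conjugating enzyme that starts the chains, stood at 51.5, 100.2 and 38.9 CPM in WT and 95.1, 112 and 132 CPM in the libraries labelled Srsf1-cKO (log2 0.83, SE 0.31, 95% confidence interval 0.13 to 1.53; edgeR adjusted p = 0.0922). WT replicate 2 alone overlapped the other group there, and without it the log2 fold change was 1.31 (edgeR adjusted p = 0.012). Without WT replicate 3 the Ube2c value was 0.56 and not called (edgeR adjusted p = 0.163). Cdc20, the activator, was at 36.6, 41.1 and 39.1 CPM and at 41.8, 54.9 and 72.7 CPM, barely separate (log2 0.54, SE 0.20; edgeR adjusted p = 0.0945), and was called without the library labelled Srsf1-cKO 1.

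Among 8 kinetochore and centromere genes, 1 rose. Spc25, a subunit of the NDC80 complex that grips microtubules, stood at 9.51, 14.0 and 9.77 CPM in WT and 16.7, 21.7 and 25.5 CPM in the libraries labelled Srsf1-cKO, without overlap (log2 0.94, SE 0.23; edgeR adjusted p = 0.0270). Its partner Spc24 was separate too, at 5.64, 8.45 and 4.09 CPM and 9.51, 11.0 and 18.8 CPM (log2 1.12, SE 0.34; edgeR adjusted p = 0.0517). Ndc80 and Nuf2 form the other arm of the same complex. Ndc80 was at 23.2, 33.0 and 14.5 CPM in WT and at 23.4, 23.9 and 24.0 CPM in the libraries labelled Srsf1-cKO, which lay inside the WT range (log2 0.01, SE 0.26, 95% confidence interval -0.59 to 0.61; edgeR adjusted p = 0.98). Nuf2 was at 22.1, 29.5 and 26.5 CPM and at 27.1, 39.3 and 51.3 CPM (log2 0.59, SE 0.24; edgeR adjusted p = 0.111). The differences between the 4 subunits in their response were not tested.

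Cenpa, the histone H3 variant that marks centromeres, overlapped narrowly, with 38.8, 51.9 and 36.3 CPM in WT and 51.5, 61.3 and 92.0 CPM in the libraries labelled Srsf1-cKO (log2 0.69, SE 0.24; edgeR adjusted p = 0.0714). Cenpf, a large kinetochore protein, was at 18.7, 42.5 and 15.4 CPM and at 41.6, 53.6 and 50.2 CPM (log2 0.93, SE 0.34; edgeR adjusted p = 0.0882). Cenpe, the kinetochore motor, with the highest CPM of the 8 (not scaled by length), was at 53.9, 90.9 and 41.2 CPM and at 68.1, 84.5 and 90.02 CPM (log2 0.38, SE 0.27; edgeR adjusted p = 0.336). At Cenpe and Cenpf WT replicate 2 lay above at least 1 library of the other group, and without it both were called, as was Spc24, which had not overlapped, with log2 fold changes of 0.76 for Cenpe, 1.495 for Cenpf and 1.42 for Spc24 (edgeR adjusted p = 0.033, 0.008 and 0.034). WT replicate 2 lay above a library of the other group at Cenpa, Nuf2 and Ndc80 too, and these were not called without it (edgeR adjusted p = 0.0510, 0.110 and 0.335). Without WT replicate 3 the log2 fold changes were 0.14 for Cenpe, 0.65 for Cenpf and 0.89 for Spc24, and none of these was called. Cenpl, a constitutive centromere protein, was the 1 member below 0, at 34.0, 29.8 and 24.8 CPM in WT and 25.1, 30.02 and 23.0 CPM in the libraries labelled Srsf1-cKO (log2 -0.19, SE 0.18, 95% confidence interval -0.59 to 0.22; edgeR adjusted p = 0.494). The Spc25 call was lost without WT replicate 1 (edgeR adjusted p 0.122), without the library labelled Srsf1-cKO 2 (0.0979) and without the library labelled Srsf1-cKO 3 (0.0690), and Nuf2 was called without the library labelled Srsf1-cKO 1.

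Spindle motors and assembly factors had 1 of 5 genes higher. Kif2c encodes MCAK, which takes microtubules apart at faulty attachments, and stood at 11.7, 17.6 and 11.35 CPM in WT and 20.1, 26.8 and 25.3 CPM in the libraries labelled Srsf1-cKO, without overlap (log2 0.83, SE 0.22; edgeR adjusted p = 0.0340). Kif11, the motor that pushes the poles apart, with the highest CPM of the 5, was at 139, 185 and 139.8 CPM and at 174, 227 and 198 CPM (log2 0.37, SE 0.16; edgeR adjusted p = 0.137). Tpx2, the activator of Aurora A at the spindle, was highest in a WT library, at 69.4, 116 and 54.4 CPM against 103, 108 and 98.5 CPM (log2 0.37, SE 0.25; edgeR adjusted p = 0.321). Nusap1, which bundles microtubules, was at 38.6, 89.4 and 32.5 CPM and at 60.6, 61.3 and 101 CPM (log2 0.47, SE 0.37; edgeR adjusted p = 0.39). Hmmr, a spindle adaptor and hyaluronan receptor, was at 52.1, 72.5 and 47.9 CPM and at 72.4, 79.7 and 89.2 CPM (log2 SE 0.18; edgeR adjusted p = 0.0915). At Hmmr, Nusap1, Tpx2 and Kif11 only WT replicate 2 overlapped the other group. Without it Kif11 was not called (edgeR adjusted p = 0.0535) and the other 3 were, with log2 fold changes of 0.68 for Hmmr, 1.05 for Nusap1 and 0.73 for Tpx2. Without WT replicate 3 these were 0.35, 0.20 and 0.13, and none of the 3 was called. Kif2c was called in the 2 fits without WT replicate 2 or without the library labelled Srsf1-cKO 1, and in none of the other 4 (edgeR adjusted p 0.146 without WT replicate 1, 0.0671 without WT replicate 3, 0.131 without the library labelled Srsf1-cKO 2 and 0.0750 without the library labelled Srsf1-cKO 3). Nusap1 shares 172 exon bases with Oip5 on the opposite strand, which stood at a log2 fold change of 0.67 (edgeR adjusted p = 0.0907).

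Midzone and cytokinesis genes rose in 2 of 4 cases. Kif23, the motor of the centralspindlin complex, stood at 27.3, 37.1 and 27.3 CPM in WT and 47.1, 58.6 and 54.8 CPM in the libraries labelled Srsf1-cKO (log2 0.81, SE 0.17; edgeR adjusted p = 0.0177). Anln, the gene of anillin, which organizes the contractile ring, was at 20.1, 22.6 and 14.8 CPM and at 35.1, 39.96 and 28.3 CPM (log2 0.84, SE 0.21; edgeR adjusted p = 0.0264). Both were separate between the groups. Kif20a, which brings the passenger complex to the midzone, overlapped, at 20.1, 29.3 and 11.1 CPM and 28.6, 42.4 and 38.6 CPM (log2 0.86, SE 0.31; edgeR adjusted p = 0.0876). Prc1, which crosslinks midzone microtubules, was at 35.5, 57.0 and 28.5 CPM and at 47.4, 57.6 and 54.3 CPM (log2 0.40, SE 0.24; edgeR adjusted p = 0.272). WT replicate 2 was the 1 WT library in both overlaps, and without it both were called, with log2 fold changes of 1.21 for Kif20a and 0.72 for Prc1. Without WT replicate 3 these were 0.55 and 0.18, and neither was called. The Kif23 and Anln calls were lost without WT replicate 1 (edgeR adjusted p 0.0933 to 0.101) and without the library labelled Srsf1-cKO 2 (0.0863 to 0.116), and Anln also without the library labelled Srsf1-cKO 1 (0.0658). Kif20a shares 977 exon bases with Cdc23 on the opposite strand (log2 0.52; edgeR adjusted p = 0.0691), so its reads and those of Cdc23 may be mixed.

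The proteins of the chromosomes themselves, the most abundant members by CPM, passed in 0 of 2 cases with edgeR, DESeq2 and limma-voom, and 1 of them, Mki67, had an unadjusted p under 0.05. Mki67 encodes Ki-67, the coat of mitotic chromosomes and a common stain for dividing cells, and stood at 319.6, 463 and 254 CPM in WT and 439.8, 543 and 568 CPM in the libraries labelled Srsf1-cKO (log2 0.58, SE 0.21, 95% confidence interval 0.10 to 1.07; edgeR adjusted p = 0.0897). Top2a, the topoisomerase that untangles sister chromosomes, was at 524, 831 and 396 CPM and at 684, 772 and 809.6 CPM (log2 0.37, SE 0.24, 95% confidence interval -0.17 to 0.91; edgeR adjusted p = 0.302). WT replicate 2 held the highest Top2a value of the 6 libraries. Without it both were called (log2 0.84 for Mki67 and 0.71 for Top2a; edgeR adjusted p = 0.020 and 0.029). Without WT replicate 3 the log2 fold changes were 0.38 for Mki67 and 0.14 for Top2a, and neither was called (edgeR adjusted p = 0.177 and 0.644).

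The libraries differed within each group as well as between the groups. Summed over the 37 members, mitotic mRNA stood at 2103.5, 3064 and 1828 CPM in WT and 2951, 3566 and 3834 CPM in the libraries labelled Srsf1-cKO, or 0.178% to 0.301% and 0.299% to 0.401% of gene counts. WT replicate 2 thus lay above the lowest library of the other group. Without Top2a and Mki67, which dominate the sum, the values were 1259.7, 1770.2 and 1178 CPM and 1827, 2252 and 2456 CPM, and the groups were separate. WT replicate 2 was the highest WT library at 33 of 37 members, and the library labelled Srsf1-cKO 1 was the lowest of its group at 33. The rest of the order varied more: WT replicate 1 stood between WT replicates 3 and 2, in that order, at 24 members, and the highest of its group was the library labelled Srsf1-cKO 3 at 23 members and Srsf1-cKO 2 at 14. These nearest libraries of the 2 groups were close: the library labelled Srsf1-cKO 1 lay above WT replicate 2 at 20 of 37 members, with a median log2 difference of 0.02. The libraries labelled Srsf1-cKO 2 and Srsf1-cKO 3 lay above WT replicate 2 at 31 and 30 members (median 0.41 and 0.52). Within WT, replicate 2 exceeded replicates 1 and 3 by medians of 0.44 and 0.52. The separation of the groups by role was widest for the cyclin and CDK1 group, with 215 to 264 CPM in WT and 384 to 612 CPM in the libraries labelled Srsf1-cKO, and for the 2 kinases, with 38.0 to 46.6 and 64.3 to 82.4 CPM. The midzone group and, barely, the passenger group were separate as well, and the checkpoint, APC/C, kinetochore, spindle and chromosome groups overlapped.

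**Figure D3:**
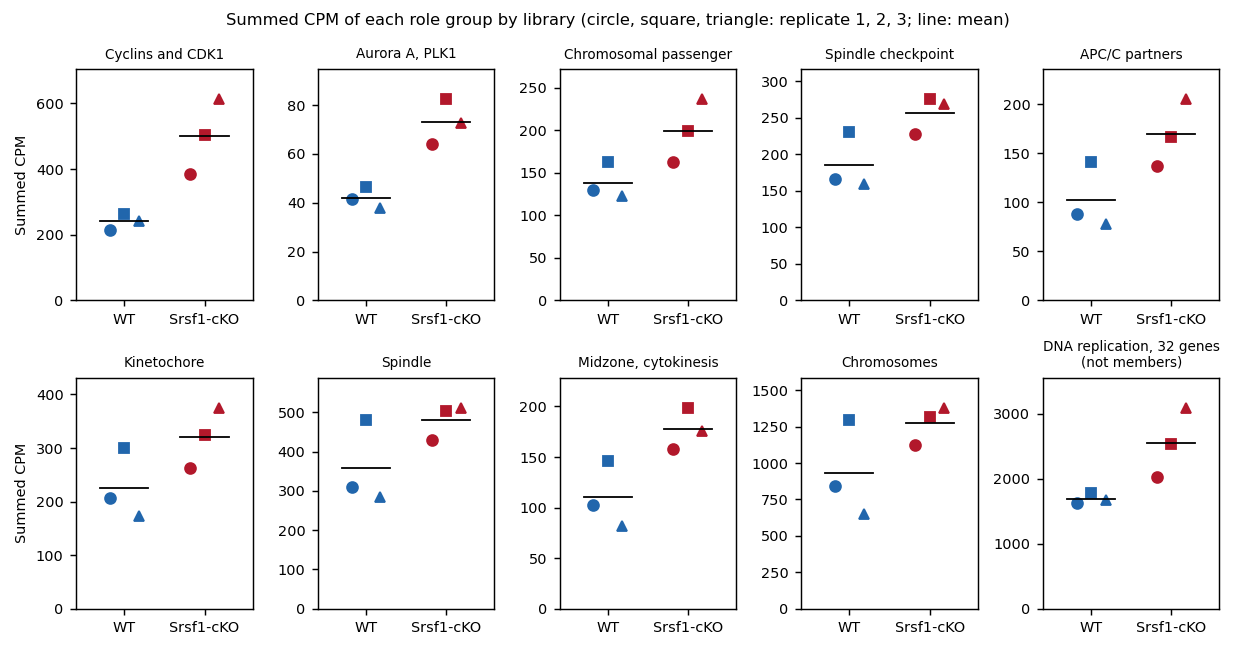
Summed CPM of each role group of the mitosis genes in the 3 WT and 3 labelled Srsf1-cKO libraries (circles, squares and triangles for replicates 1, 2 and 3, with lines at the group means), each panel starting at 0, with 32 DNA replication genes that are not members in the last panel. WT replicate 2 stands above the other 2 WT libraries in most panels, and in the last panel the groups are separate, at 1627 to 1775 and 2036 to 3092 CPM.

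How many members were called rested on single libraries, while the direction of most members did not. With WT replicate 1 left out, edgeR called 0 of 37 members (lowest adjusted p 0.0543). In that fit 34 members were above 0, with a median log2 fold change of 0.55 against -0.01 over all genes. Leaving out the library labelled Srsf1-cKO 2 left 1 call, Cdk1. In those fits the share of all genes called higher fell to 0.754% and 1.23%. Leaving out WT replicate 2 raised the count to 26 members, with 9.08% of all genes called higher, and included all 15. The other 3 fits called 12 members without WT replicate 3, 14 without the library labelled Srsf1-cKO 1 and 9 without the library labelled Srsf1-cKO 3, against 8.47%, 5.35% and 6.53% of all genes. Each of the 15 called members stayed above 0 in all 6 fits, which could hardly be otherwise, since their groups did not overlap. Of all 37, at least 34 were above 0 in each fit, and their median ran from 0.52 to 0.83. Members are not replicates, as their levels varied together between libraries, and the fits share libraries, so these counts are not independent. Ccna2, for instance, ran from 1.35 to 1.99. The tool and threshold moved the count as well. DESeq2 called 20 members higher (9.14% of all genes), limma-voom 16 (8.95%) and limma-voom with sample weights 30 (21.2%). An adjusted p under 0.01 left 1 member, Cdk1 (1.27% of all genes), and one under 0.10 gave 24 (13.9%). Scaling by library size alone gave 16 (12.1%).

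**Figure D4:**
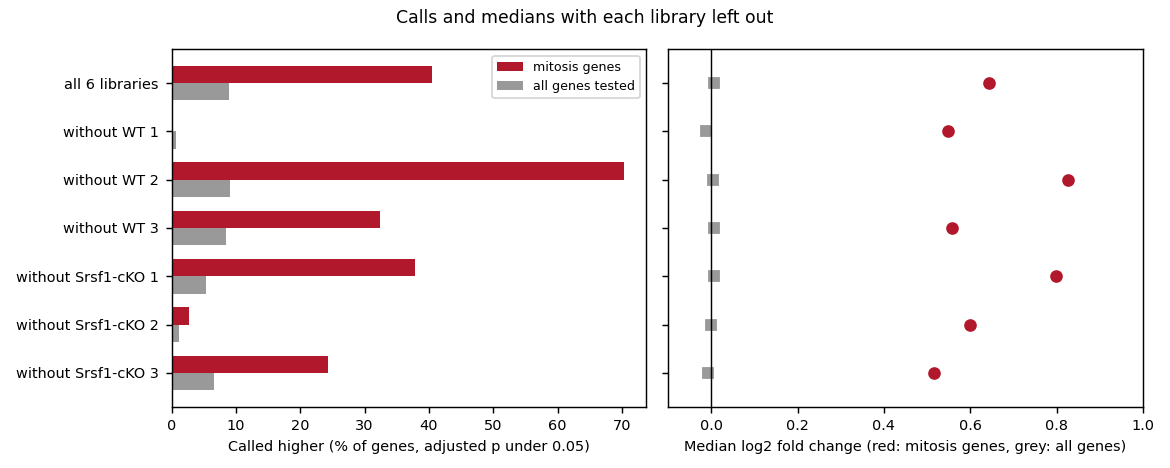
Left, the percent of the 37 mitosis genes (red) and of all genes tested (grey) that edgeR called higher at an adjusted p under 0.05, with all 6 libraries and with each left out in turn; right, the median log2 fold change of the same 2 sets of genes. The red bar falls from 40.5% to 0 without WT replicate 1, while the red points stay between 0.52 and 0.83.

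Levels of different genes were compared on the deposited FPKM values, which are scaled by transcript length. In WT the highest mean FPKM values belonged to Cks2 (90.6), Cks1b (79.4), Top2a (79.0) and Ube2c (60.0), and the spread of Cks1b (SD 22.4), Top2a (SD 32.3) and Ube2c (SD 31.9) leaves these 4 without a clear order. In the libraries labelled Srsf1-cKO, Cks1b was at 115, Ube2c at 113, Top2a at 109 and Cks2 at 95.6 FPKM. Top2a and Mki67, which lead by CPM, differ on this scale, with Mki67 at 24.8 FPKM in WT and 39.7 FPKM in the other group. The lowest WT levels were those of Cenpf (1.62) and Anln (2.47). Cdk1 stood at 13.0 and 31.1 FPKM and Ccna2 at 13.7 and 43.8 FPKM in the 2 groups. limma on log2(FPKM + 1) called 16 of 37 members higher and 0 lower, where 12.3% of 9617 tested genes were called higher and 6.39% lower. The 16 were the 15 called from counts and Spc24 (limma adjusted p = 0.0397). Without the filter on low FPKM values 6 were called, with 4.98% of all genes. By FPKM, the libraries labelled Srsf1-cKO all lay above the WT ones at 21 members, against 25.6% of all genes tested on that scale, and Kif20a, Hmmr and Cenpa joined those separate by CPM. The members' median log2 difference was 0.71 on that scale, where the median over all genes was 0.10.

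Other genes of the same machinery, listed by role, moved less uniformly. Of 187 tested genes outside the members, 35 rose (18.7%) and 9 fell, against 8.9% and 9.5% of all tested genes, and the median log2 fold change was 0.40. Among 14 regulators of mitotic entry, 6 rose (42.9%) and 1 fell (7.14%). The paralogs Arpp19 and Ensa, both of which inhibit the phosphatase PP2A-B55 once phosphorylated by the Greatwall kinase, went opposite ways. Arpp19 rose from 68.9 ± 1.82 to 125 ± 5.85 CPM (log2 0.86, SE 0.12; edgeR adjusted p = 0.00648) and Ensa, with the highest CPM of the 14, fell from 144 ± 5.63 to 96.3 ± 10.7 CPM (log2 -0.58, SE 0.13; edgeR adjusted p = 0.0186). The kinase genes Pbk (19.96 ± 2.61 to 54.5 ± 12.5 CPM; log2 1.45) and Melk (18.1 ± 4.88 to 36.8 ± 6.30 CPM; log2 1.03) rose as well (edgeR adjusted p = 0.00667 and 0.0180).

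Among 34 further spindle and cytokinesis genes, 7 rose (20.6%) and 0 fell. Kif20b, a cytokinesis motor, rose from 35.3 ± 3.66 to 67.2 ± 7.03 CPM (log2 0.93, SE 0.15; edgeR adjusted p = 0.00862), and the centrosomal kinases Nek2 (log2 1.01, SE 0.26) and Plk4 (86.2 ± 7.67 to 121 ± 6.58 CPM) rose too (edgeR adjusted p = 0.0297 and 0.0315). Of 33 further kinetochore and checkpoint genes, 2 rose (6.06%) and 1 fell (3.03%), both below the 8.9% and 9.5% of all tested genes. Kntc1, a subunit of the complex that brings dynein to kinetochores (log2 1.09, SE 0.27), and Casc5, the kinetochore scaffold KNL1 (log2 0.78, SE 0.23), were the risen ones (edgeR adjusted p = 0.0272 and 0.0460). Hjurp, the chaperone that loads Cenpa onto centromeres, fell. It stood at 29.1, 24.2 and 27.5 CPM in WT and at 12.0, 11.3 and 8.17 CPM in the libraries labelled Srsf1-cKO (log2 -1.36, SE 0.20; edgeR adjusted p = 0.00667). Each WT value was above every value of the other group, while Cenpa itself, as given earlier, stood at a log2 fold change of 0.69 and was not called.

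Chromosome structure and the APC/C were examined next. Of 8 condensin genes, 2 rose (25%), Ncapg2 (68.2 ± 10.5 to 107 ± 13.4 CPM; edgeR adjusted p = 0.0246) and Smc2 (123 ± 20.7 to 196 ± 31.4 CPM; edgeR adjusted p = 0.0289), while Smc4, the partner of Smc2, with the highest CPM of the 8, stood at 533 ± 183 and 570.2 ± 52.4 CPM (log2 0.10; edgeR adjusted p = 0.784). Of 15 cohesin and separase genes, 1 rose and 1 fell (6.67% each, against 8.9% and 9.5% of all tested genes). Sgol1, the gene of shugoshin, which protects centromeric cohesin, rose from 21.05 ± 3.43 to 41.0 ± 5.74 CPM (log2 0.96, SE 0.18; edgeR adjusted p = 0.0117). Nipbl, the cohesin loader, fell from 411 ± 40.2 to 305 ± 11.1 CPM (log2 -0.43, SE 0.12; edgeR adjusted p = 0.0409). Of 16 genes of the APC/C and its inhibitors, 2 rose and 2 fell (12.5% each, against 8.9% and 9.5% of all tested genes). Fbxo5, the gene of the inhibitor EMI1, rose from 17.4 ± 3.83 to 37.2 ± 8.05 CPM (log2 1.09, SE 0.22; edgeR adjusted p = 0.0148), while the subunits Anapc16 (38.1 ± 5.03 to 19.0 ± 1.54 CPM; log2 -1.003) and Cdc27 (247 ± 8.92 to 179 ± 15.3 CPM; log2 -0.47) fell (edgeR adjusted p = 0.00862 and 0.0306). The subunit gene Anapc5 also rose (log2 0.65, SE 0.19; edgeR adjusted p = 0.0478), and its log2 fold change was 0.43 without the library labelled Srsf1-cKO 3.

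The transcription factors of cell cycle genes were split, with 3 of 21 higher and 3 lower and a median of 0.04. These are 14.3% each, against 8.9% and 9.5% of all tested genes. Tfdp1, the dimer partner of E2F factors, rose from 124 ± 12.9 to 188 ± 2.12 CPM (log2 0.61, SE 0.12; edgeR adjusted p = 0.0143), and the repressor gene E2f8 rose from 11.0 ± 0.654 to 21.3 ± 5.32 CPM (log2 0.96, SE 0.22; edgeR adjusted p = 0.0201). Lin37, a subunit of the MuvB core of DREAM, fell from 12.3 ± 1.16 to 6.505 ± 1.43 CPM (log2 -0.91, SE 0.23; edgeR adjusted p = 0.0287). Tfdp2, another E2F partner (log2 -1.68), and Rbl2, the p130 subunit of DREAM (log2 -0.66), also fell and are named after their values were seen. The same holds for the factors that act with MuvB on CHR elements. Mybl2, the gene of B-MYB, stood at 7.41, 7.02 and 9.37 CPM in WT and at 9.72, 18.2 and 21.6 CPM in the libraries labelled Srsf1-cKO and rose (log2 1.06, SE 0.30; edgeR adjusted p = 0.041), the groups being barely separate. Foxm1 overlapped, at 17.0, 28.4 and 18.2 CPM and 16.4, 24.8 and 36.3 CPM (log2 0.29, SE 0.31; edgeR adjusted p = 0.529). Without WT replicate 1 edgeR called 0 of these 21 genes, where 0.754% of all genes were called higher and 1.08% lower. Without the library labelled Srsf1-cKO 2 it again called 0, where the shares of all genes were 1.23% and 0.968%.

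Of 32 DNA replication genes, which peak earlier in the cell cycle, 10 rose, 0 fell and 22 were not called, with a median of 0.55. The risen genes were 31.25% of the 32, where 8.9% of all tested genes rose. The count of higher genes was 2 without WT replicate 1, 2 without the library labelled Srsf1-cKO 2 and 6 without the library labelled Srsf1-cKO 3. In those fits 0.754%, 1.23% and 6.53% of all genes were called higher. Tyms, the thymidylate synthase gene, rose by a log2 fold change of 1.86 and Rrm2, of ribonucleotide reductase, by 1.52 (edgeR adjusted p = 0.00667 and 0.00648). The sum of the 32 genes was 1627, 1775 and 1680.0 CPM in WT and 2036, 2544 and 3092 CPM in the libraries labelled Srsf1-cKO, so WT replicate 2 stood less apart from the other WT libraries there than it did at the members. Among 9 G1 cyclins and CDKs, 2 rose (22.2%) and 1 fell (11.1%): Cdk4 (log2 0.70; edgeR adjusted p = 0.00988) and Ccne2 (log2 0.83; edgeR adjusted p = 0.0226) were higher and Rb1, the retinoblastoma gene, was lower (log2 -0.50; edgeR adjusted p = 0.0429). Ccnd2, with the highest CPM of them, stood at 2368 and 2311 CPM (log2 -0.04; edgeR adjusted p = 0.912). Of 5 tested CDK inhibitors, edgeR and limma-voom called 0 and DESeq2 called 1 lower. Cdkn1b (p27) was at 77.8 and 47.9 CPM (log2 -0.70; edgeR adjusted p = 0.0960), Cdkn1c (p57) at a log2 fold change of -1.10 (edgeR adjusted p = 0.0843) and Cdkn1a (p21), with the highest CPM, at -0.22 (edgeR adjusted p = 0.350). Of the 5, Cdkn1b and Cdkn1c were at an unadjusted p under 0.05. The inhibitors did not share 1 direction, as 2 of the 5 were above 0, the highest at 0.70. Without WT replicate 2 edgeR called 1 of them higher and 1 lower, where 9.08% of all genes were called higher and 9.57% lower.

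**Figure D5:**
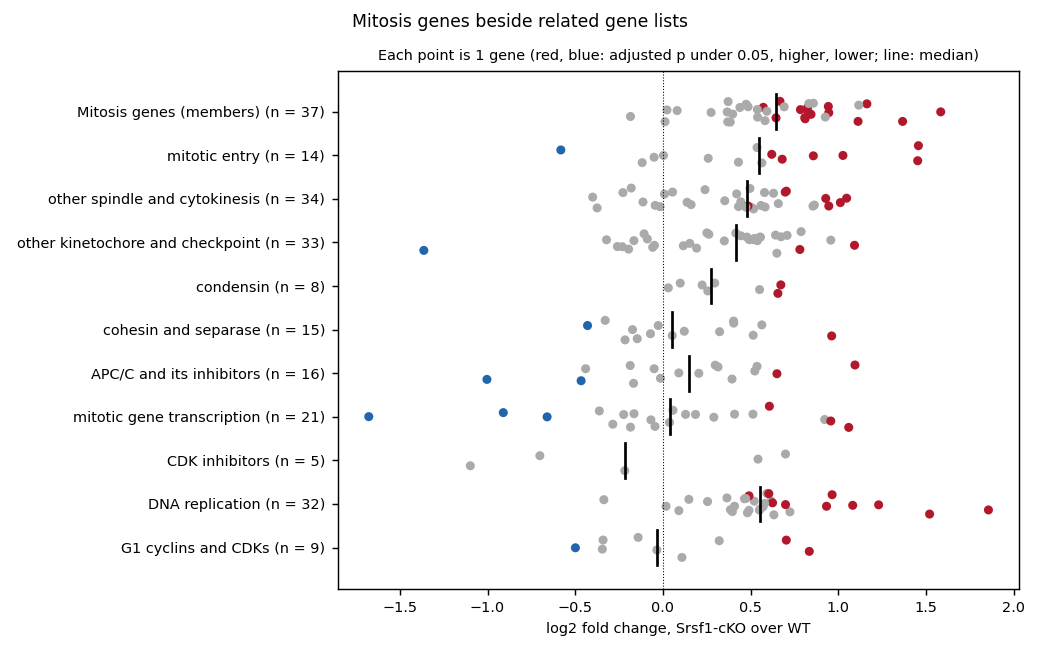
Log2 fold changes, libraries labelled Srsf1-cKO over WT, of the mitosis genes and of each related gene list (1 point a gene, red where edgeR called it higher, blue where lower and grey where not called, with a line at each list's median). The median is 0.64 for the 37 mitosis genes, 0.55 for DNA replication and for mitotic entry, and 0.04 for the transcription factors.

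These outer lists depended on the same libraries as the members. Without WT replicate 1, 4 of the related genes were called higher and 1 lower, where 0.754% of all genes were called higher and 1.08% lower. Without the library labelled Srsf1-cKO 2 the counts were again 4 and 1, where the shares of all genes were 1.23% and 0.968%. Without WT replicate 2 they were 47 and 7, with 9.08% and 9.57% of all genes. The 28 called genes that the rule for names takes from these lists were still called in 5 cases without WT replicate 1, in 5 without the library labelled Srsf1-cKO 2 and in 18 to 24 in the other 4 fits.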

How the data were processed

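RNA of 6 libraries was examined, 3 WT and 3 labelled Srsf1-cKO, grouped by the genotype in their labels. The authors deposited whole-number read counts per gene, not normalized, and a second table of FPKM values, a unit read from the values themselves. Reads were aligned with STAR 2.4.2a, per the header of a deposited alignment report. Cufflinks, without a version, and the build mm9 come from the submitters' processing notes. How reads were assigned to genes (program, annotation, strand) is not given in the sources at hand, so genes that overlap on opposite strands may share reads. Overlaps were read from GENCODE M21 and promoters from the RefSeq table of GRCm38.p6. That build is not the one of the files, so no coordinates of the files are given. Libraries came from a stranded mRNA kit with single-end 75 bp reads, per the labels' protocols.

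Counts were fitted with edgeR 4.0.16 in R 4.3.3 (filterByExpr, TMM scaling, two-sided quasi-likelihood test, genotype as the only term). The Benjamini-Hochberg adjustment ran over all 10454 genes kept. A gene was called at an adjusted p under 0.05, and only called genes are said to have risen or fallen. limma 3.58.1 was run on log2(FPKM + 1) for 9617 genes that reached 1 FPKM in 3 or more libraries, a scale on which low genes show too small a change. Gene counts ran from 7781283 to 10184268 a library, and replicates of a group always differed beyond sampling noise (chi-square test). The fits were tested on simulated counts. Alternatives were other scalings, filters and thresholds, DESeq2 1.42.0, limma-voom (also with sample weights), a replicate block, leaving out each library, the FPKM table and a promoter window of 250 bases.

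The members and all lists were chosen with earlier results of these data known. All members are named. Of each other list, the rule for names takes up to 3 genes with the smallest adjusted p and the most abundant tested gene, and some of these are not described. Promoters printed are those of the 4 members with the smallest adjusted p that have an entry.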

Additional observations from a re-analysis of the deposited data

How the results depend on the processing

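With at least 34 of 37 members above 0, the direction of their difference held under every setting tried. All settings drew on the same 6 libraries and members are not replicates, so the settings are not independent of each other. The count of higher members varied. Against 15, it was 30 with sample weights in limma-voom, 1 at an adjusted p under 0.01, 24 at 0.10, and 0 to 26 with each library left out. It lay between 15 and 20 under the other scalings, filters and tools. Of the 187 related genes, 35 were higher and 9 lower; library-size scaling gave 5 lower, sample weights gave 81 and 19, and leaving out a library gave 4 to 47 and 1 to 10. In the FPKM table, 16 members became 6 without the filter on low values and 0 to 29 with a library left out. Over all genes, 930 higher and 993 lower became 2213 and 2142 with sample weights, and 80 to 968 and 103 to 1074 with a library left out. Library-size scaling alone gave 1268 higher and 709 lower genes (12.1% and 6.78%), with a median over all genes of 0.11 and 16 members higher. With 250 bases before the start alone, 32.3% of members held TTTGAA, 48.4% either CHR form and 41.9% a CHR form with CCAAT. The shares of members fell since many of their CHR matches begin near or after the start. In the same window and order, the tested genes stood at 10.04%, 16.8% and 6.38%. All promoters stood at 16.3%, 25.5% and 8.995%, so the members remained above both.

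Genes with a log2 fold change near 0 changed sign in some settings. Cks2 was at -0.22 with sample weights, between -0.20 and 0.12 with a library left out, and at -0.10 by FPKM without the library labelled Srsf1-cKO 3. Ndc80 was at -0.0052 without the filter, between -0.26 and 0.32 with a library left out, and by FPKM between -0.089 and 0.44. Bub1 ran from -0.14 to 0.44 with a library left out. Smc4 ran from -0.13 to 0.38 with a library left out, and Srsf1 at -0.0047 without WT replicate 2, where Stag2 by FPKM was at 0.093. Ccnd2 was at 0.067 with library-size scaling and between -0.18 and 0.18 with a library left out, and by FPKM at 0.090 and between -0.028 and 0.30. For these and for the counts above, except the promoter windows, the cause was not tested.

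Replicate numbers shared by the groups do not pair the libraries by their labels. Deviations of same-numbered libraries from their group means correlated at 0.22, 0.01 and 0.27 for numbers 1, 2 and 3. WT replicates 1 and 3 correlated best with the library of their own number, and WT replicate 2 with the library labelled Srsf1-cKO 1 (0.20). Deviations from a group mean sum to 0 within each group, so these values depend on each other and cannot decide whether libraries were paired. With a replicate block, 19 members were higher and 0 lower (10.7% of all genes higher), 22 were higher by FPKM (14.3% of all genes), and 49 related genes were higher and 9 lower.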
